A study of Rattus norvegicus with 34 samples.

Results

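PBMC, the mononuclear cells of the blood (lymphocytes and monocytes), were compared between 2 sides of 17 arrays, out of 34 arrays in the series. Side A held 9 arrays, those labelled saline 1 to 8 and DOX 1. Side B held 8 arrays, those labelled DOX 2 to 9. The sides follow the study's supplementary list of PBMC genes, in which side A is the DOX side and side B the control side, and they differ from the sample labels for 16 of 17 arrays. All animals were female Sprague-Dawley rats that had received a single intraperitoneal injection of 12 mg/kg doxorubicin (DOX) or of saline and were killed after 48 h. Blood was drawn from the heart, and PBMC were separated on a Ficoll gradient, which leaves most red cells and granulocytes behind but not all of them. Total RNA was amplified before hybridization to Illumina RatRef-12 BeadChips. Some rats had repeat arrays according to the methods; whether these were averaged or chosen from is not given in the sources used here.

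The conflict between the list and the labels was measured on the deposited values. Over 1998 probes, the PBMC estimates of the list equalled the mean of side A minus the mean of side B, apart from a constant of 0.0945, with a largest deviation of 5.0e-06 in log2. Set against DOX minus saline as labelled, the deviations had a SD of 1.72. The files do not settle which assignment is right, so differences are given as side A minus side B, and no direction here is an effect of DOX as such. A description label also names the left ventricle for the PBMC samples. The arrays read as blood: Myh6, the cardiac myosin heavy chain, lay between −0.44 and 0.12 in deposited log2 intensity on the PBMC arrays and between 5.19 and 8.59 on the heart arrays. Cd3e, a chain of the T cell receptor complex, lay between 1.32 and 5.92 on the PBMC arrays and between −0.17 and 0.18 on the heart arrays.

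DOX is an anthracycline that poisons topoisomerase II on DNA and cycles between quinone and semiquinone forms, which produces reactive oxygen. Dividing bone marrow precursors are sensitive to it, and a fall in circulating lymphocytes is a known effect of the drug. A PBMC profile is a mixture of T, B and NK cells and monocytes with some platelets, red cells and granulocytes. In such bulk samples fewer cells of a type and less RNA per cell cannot be told apart.

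The expressed genes were dimmer on side A than on side B on every array. An expressed gene was one whose average over the 34 arrays lay above a log2 intensity of 0.152, the dividing value recovered from the study's list, and 6760 such genes with a symbol were tested. Their median log2 intensity was 1.70 at the lowest, 1.92 at the median and 2.17 at the highest of the side B arrays. On side A it was 0.30, 0.38 and 1.46, and the difference of the means was −1.34 (two-sided exact permutation test, p = 8.23e-05, adjusted p = 8.23e-05 over 4 array measures). The sides did not overlap, and saline 4 was the brightest array of side A. Among 22523 probes, 22278 to 22419 values were distinct on the arrays of side B and 2804 to 5746 on those of side A (exact permutation test, p = 4.11e-05, the smallest the design allows). The interquartile range over all probes was 1.17 to 1.53 on side B and 0.26 to 0.96 on side A. The treatment, the labels, the brightness and the number of distinct values move together, and their parts in any difference below cannot be told apart.

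**Figure D1:**
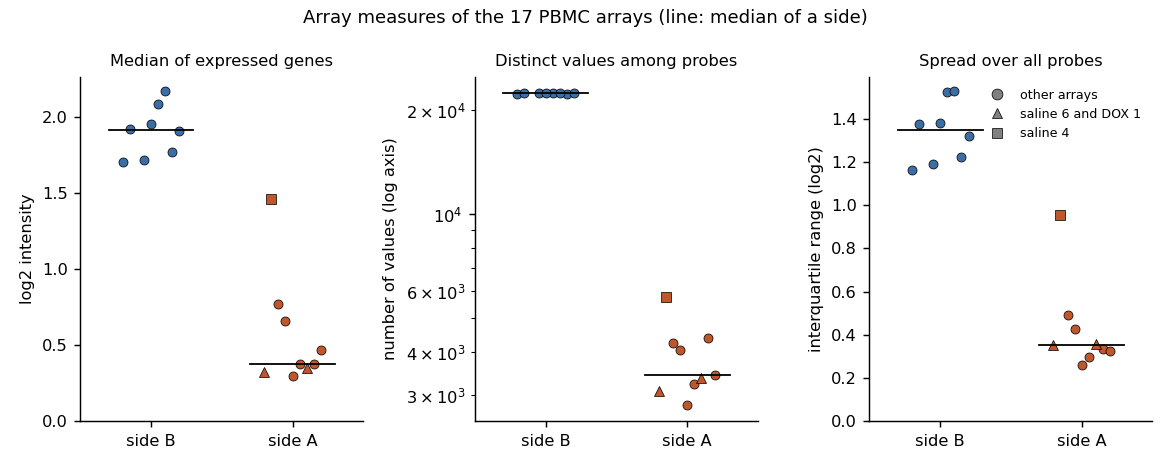
Median log2 intensity of the expressed genes, number of distinct values among 22523 probes (log axis) and interquartile range over all probes in log2, for each of the 17 PBMC arrays by side, with a line at the median of a side. Triangles mark saline 6 and DOX 1 and the square saline 4; no side A array reaches the lowest side B array in any panel.

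Values on 2 scales are therefore given for each gene. The plain scale is the deposited log2 intensity minus the median of the probes not expressed on that array. On the quantile-normalized scale all 17 arrays share the same distribution of values, which removes the difference in brightness and stretches the narrow range of the side A arrays. Calls needed a fold change over 2 and an adjusted p under 0.05 in limma's moderated test. On the plain scale 32 of 6760 genes (0.473%) were called higher on side A and 3679 (54.4%) lower, together 54.9%, with a median log2 difference of −1.12 over all genes. After quantile normalization 328 genes (4.85%) were called higher and 680 (10.1%) lower, together 14.9%, with a median of −0.10. All 32 genes called higher on the plain scale were also called higher after quantile normalization, all 680 called lower after quantile normalization were also called lower on the plain scale, and 0 genes were called lower on the plain scale and higher on the other. The sides did not overlap for 38.6% of genes on the plain scale (0.118% higher, 38.4% lower) and for 17.4% after quantile normalization (3.61% higher, 13.7% lower). The within-array percentile, the rank of a gene among all probes of its array, gave 823 genes (12.2%) higher and 1811 (26.8%) lower at an adjusted p under 0.05 with no fold threshold, together 39%.

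The genes not expressed differed between the sides as well. Of 6577 such genes, 2318 (35.2%) had an unadjusted limma p under 0.05, although their median difference was 0.01. When the p-values of the expressed genes were set against those of the genes not expressed, a step the study's methods name, limma called 0 genes with separate fits of the 2 sets, with 2788 at an unadjusted p under 0.05. A joint fit, added after that count had been seen, called 1536. The calls below are those without this step.

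Several genes of neutrophils were higher on side A. S100a8, which with S100a9 forms calprotectin, the abundant cytosolic protein complex of neutrophils and monocytes, had the largest increase. Its log2 intensity was 0.50 at the lowest, 1.49 at the median and 4.06 at the highest on side B and 5.56, 6.03 and 7.63 on side A. Every side A array lay above every side B array. The difference was 4.53 ± 0.43 (SE, n = 9 and 8 arrays, adjusted p = 6.7e-08) on the plain scale and 5.67 ± 0.36 after quantile normalization. S100a9 read −0.33, −0.19 and 0.03 on side B and 0.36, 1.11 and 5.25 on side A. The highest 2 values were those of DOX 1 and saline 6, at 4.71 and 5.25, and the difference was 2.22 ± 0.63 (adjusted p = 0.0040), or 3.10 ± 0.79 after quantile normalization.

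Of the neutrophil list, 20 genes had a probe and 8 passed the filter on low values. Of these, 4 were called higher on the plain scale (S100a8, S100a9, Retnlg and Mmp8) and 8 after quantile normalization, where Camp, Mmp9, Il1r2 and Hp joined them. On both scales 0 were called lower. Over all genes 0.473% and 4.85% were called higher on these 2 scales. Mmp8, a collagenase of neutrophil granules, read between −0.05 and 1.01 on side B and between 0.45 and 4.34 on side A. The 12 members not expressed include Mpo, Elane and Prtn3, the proteins of primary granules, and Csf3r and Cxcr2, receptors of mature neutrophils, so the list was read through less than its whole set of markers. A member near background on side B, such as S100a9, could pass the filter through its level on side A and then had to differ, so the counts describe the members that passed and support nothing about the list.

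Ccr1, a receptor for inflammatory chemokines on monocytes and neutrophils, was also higher on every side A array. It read 0.45, 0.70 and 1.13 on side B and 1.48, 2.63 and 4.52 on side A, a difference of 2.0 ± 0.32 (adjusted p = 2.4e-05), or 3.19 ± 0.25 after quantile normalization. Gnmt, glycine N-methyltransferase, read 0.86, 1.27 and 1.78 on side B and 1.87, 3.09 and 3.90 on side A, a difference of 1.69 ± 0.25. Upp1, uridine phosphorylase, and Retnla, resistin-like alpha, differed by 1.35 ± 0.38 and 1.20 ± 0.27 without overlap. These 6 genes (S100a8, S100a9, Ccr1, Gnmt, Upp1 and Retnla) are all that were called higher and free of overlap on both scales. Without saline 4 the difference of Retnla fell to 0.97, below the fold threshold.

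Akr1c12, an aldo-keto reductase, followed S100a8 in the size of its plain increase. It read 0.81, 2.47 and 4.04 on side B and 3.88, 5.69 and 7.38 on side A, so that the lowest side A array lay below the highest side B array. The difference was 3.41 ± 0.50 (adjusted p = 7.8e-06), and 4.67 ± 0.51 after quantile normalization, where the sides did not overlap.

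**Figure D2:**
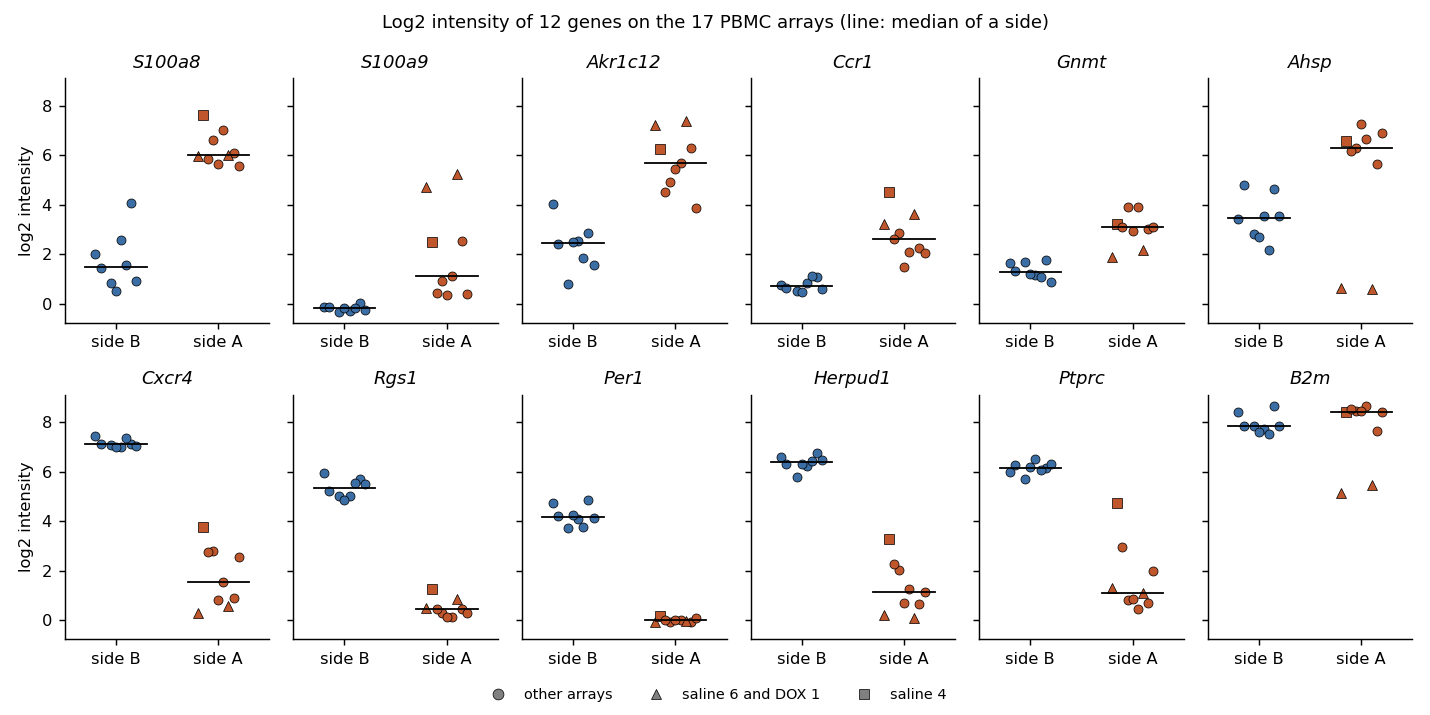
Log2 intensity (plain scale) of 12 genes on each of the 17 PBMC arrays by side, with a line at the median of a side; triangles mark saline 6 and DOX 1 and the square saline 4. S100a8 lies between 0.50 and 4.06 on side B and between 5.56 and 7.63 on side A, Cxcr4 between 6.99 and 7.46 on side B and between 0.27 and 3.78 on side A, and B2m overlaps.

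The mean quantile-normalized level of the red cell genes was 1.72 to 2.87 on side B, 3.62 to 5.0 on 7 of the 9 arrays of side A, and 1.72 and 1.87 on the other 2. On the plain scale few members were called. Of 23 members that passed the filter, 2 were called higher on the plain scale (Aqp1, a water channel, and Selenbp1) and 2 lower (Epb41 and Gypc). Their median difference was 0.20, and over all genes 0.473% were called higher and 54.4% lower. After quantile normalization 13 were called higher and 0 lower, against 4.85% and 10.1% of all genes, with a median of 1.19. Ahsp, the chaperone of free alpha globin, read 2.16, 3.48 and 4.79 on side B. On side A it read 0.61 and 0.64 on saline 6 and DOX 1 and between 5.64 and 7.28 on the other 7 arrays. Over all 9 arrays its difference of 1.75 ± 0.93 was not called (adjusted p = 0.093), and without saline 6 and DOX 1 it was 3.06. Those 2 arrays were picked from these same data and held the lowest Ahsp values of side A. Leaving them out had to raise the difference, so values and counts of red cell genes given without them are no test.

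Fech, the enzyme that places iron in heme, behaved alike, with 0.36 and 0.54 on those 2 arrays and 5.57 to 7.09 on the other 7. Hba-a1, an alpha globin, was bright on both sides, with 7.11, 7.49 and 8.42 on side B and 6.28, 8.65 and 8.79 on side A. Without the 2 arrays 8 red cell members were called higher and 1 lower on the plain scale and 17 higher after quantile normalization, and without saline 4 the plain count was 0 higher and 2 lower. Alox15, a lipoxygenase of maturing red cells and eosinophils, Ppbp, a platelet chemokine, and Add2, a protein of the red cell skeleton, were called higher only after quantile normalization. These also became called on the plain scale without saline 6 and DOX 1. So did Gclm of the NRF2 and glutathione list, at 1.27 against 0.69 with all arrays.

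The median of the monocyte and macrophage list was below 0 on the plain scale and above 0 after quantile normalization. On both scales it lay above the median of all genes. Of 18 members, 1 was called higher (Ccr1) and 8 lower on the plain scale, with a median of −0.69. Over all genes 0.473% were called higher and 54.4% lower there, with a median of −1.12. After quantile normalization 6 were called higher (Ccr1, Ccr2, Fcgr1a, Aif1, Cd36 and Lgals3) and 0 lower, with a median of 0.32. The shares over all genes were then 4.85% higher and 10.1% lower, with a median of −0.10. Fcer1g, the common Fc receptor gamma chain and the brightest member, read 6.76, 7.19 and 7.71 on side B and 4.87, 6.04 and 7.57 on side A. Its difference was −1.01 ± 0.32 on the plain scale and 0.17 ± 0.14 after quantile normalization, and without any of 8 single arrays the plain value fell short of the fold threshold. Platelet genes held 0 higher and 6 lower of 13 on the plain scale, a share below the 54.4% lower over all genes, and 1 and 2 after quantile normalization. Without saline 6 and DOX 1 the latter became 2 higher and 1 lower, and the median turned from −0.15 to 0.36. Pf4, platelet factor 4, read 7.37 to 8.67 on side B and 5.36 to 8.61 on side A.

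**Figure D3:**
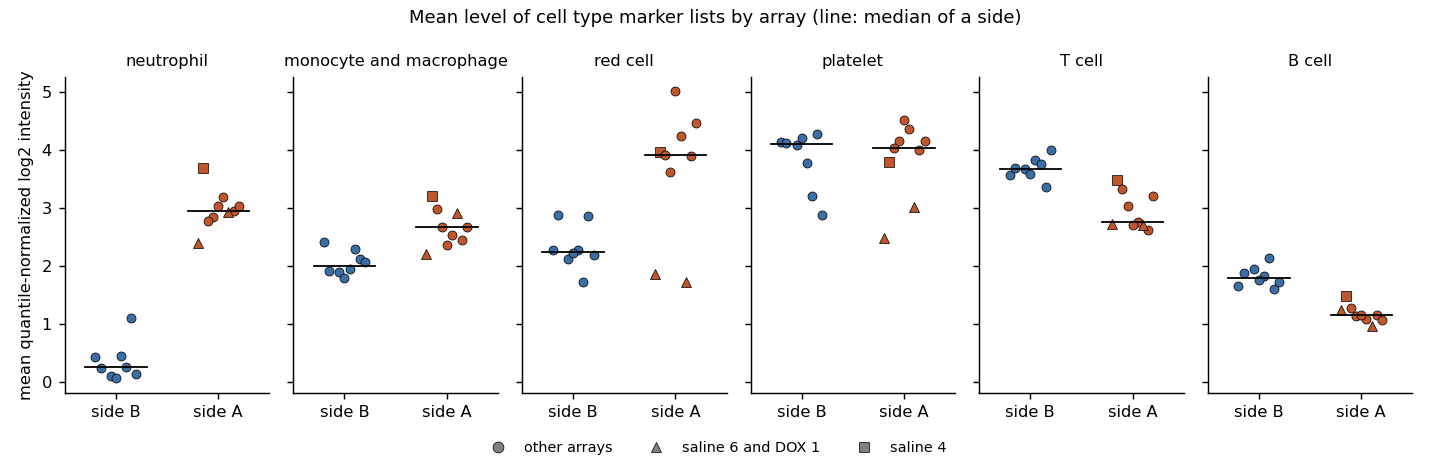
Mean quantile-normalized log2 intensity of 6 cell type marker lists on each of the 17 PBMC arrays by side, with a line at the median of a side; triangles mark saline 6 and DOX 1 and the square saline 4. The neutrophil list lies between 0.07 and 1.11 on side B and between 2.39 and 3.68 on side A, and the red cell list of saline 6 and DOX 1 lies at 1.72 and 1.87 against 3.62 to 5.0 on the other 7 side A arrays.

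The 10 largest decreases that held on both scales without overlap were Cxcr4, Herpud1, Pik3ip1, Rgs1, Per1, Fem1b, Klf9, Bhlhe40, Sik1 and Ptprc. Cxcr4, the chemokine receptor that retains leukocytes in marrow and lymphoid tissue, read 6.99, 7.11 and 7.46 on side B and 0.27, 1.55 and 3.78 on side A. The sides lay more than 3 log2 units apart at their nearest arrays. The difference was −5.38 ± 0.42 (adjusted p = 7.3e-09), and −4.07 ± 0.33 after quantile normalization. Rgs1, which shortens G-protein signaling downstream of such receptors, read 4.86, 5.36 and 5.97 on side B and 0.12, 0.46 and 1.28 on side A, a difference of −4.87 ± 0.18, or −3.54 ± 0.21.

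Per1, a clock gene that glucocorticoids induce, read 3.73, 4.17 and 4.87 on side B and −0.08, 0.00 and 0.17 on side A. It lay near the level of probes not expressed, which is 0, on each of the 9 side A arrays, so the fitted difference of −4.22 ± 0.14, or −3.19 ± 0.15, is a lower limit of its size and its rank among the decreases is not settled. Ptprc, the leukocyte common antigen CD45, read 5.71, 6.17 and 6.51 on side B and 0.43, 1.11 and 4.76 on side A, with the highest value on saline 4. Its difference was −4.49 ± 0.48, or −2.93 ± 0.33. Pik3ip1, an inhibitor of PI3-kinase, differed by −4.91 ± 0.26 and Klf9, a Krüppel-like factor, by −4.73 ± 0.27 on the plain scale. Bhlhe40, a transcriptional repressor, differed by −4.46 ± 0.22 and Fem1b, a substrate receptor of a ubiquitin ligase, by −4.30 ± 0.22 on that scale. Fem1b lay near the level of probes not expressed on several side A arrays, so its difference is also a lower limit of its size. The same holds for Cflar and Mx2 below. The lowest side A values of Pik3ip1, Herpud1, Sik1, Bhlhe40, Rgs1 and Mafk also lay near that level, between −0.06 and 0.12. Their differences may therefore be lower limits, and the ranks among the decreases are not settled.

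Promoters of 3 of these genes and of Hspa5 are shown, Rgs1 and Sik1 from the immediate early list, Cxcr4 from the glucocorticoid responsive list and Hspa5 from the endoplasmic reticulum stress list, each for its match to a motif. Sequences are from RefSeq (GRCr8), 300 bases around the start of the gene, 5′ to 3′. A promoter was found for 5653 entries among the genes tested. In the first 3, capitals mark TGACG or its reverse complement, the core of the cyclic AMP response element. In Hspa5, capitals mark CCAAT and CCACG with 9 bases between them, the endoplasmic reticulum stress response element.
Cxcr4, chr13:42634239-42634538, minus strand: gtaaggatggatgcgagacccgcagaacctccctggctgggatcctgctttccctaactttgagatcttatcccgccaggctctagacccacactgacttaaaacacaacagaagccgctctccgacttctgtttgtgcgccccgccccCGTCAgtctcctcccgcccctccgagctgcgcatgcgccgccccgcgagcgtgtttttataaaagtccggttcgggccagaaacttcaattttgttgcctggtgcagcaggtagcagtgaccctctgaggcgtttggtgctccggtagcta
Rgs1, chr13:58573138-58573437, minus strand: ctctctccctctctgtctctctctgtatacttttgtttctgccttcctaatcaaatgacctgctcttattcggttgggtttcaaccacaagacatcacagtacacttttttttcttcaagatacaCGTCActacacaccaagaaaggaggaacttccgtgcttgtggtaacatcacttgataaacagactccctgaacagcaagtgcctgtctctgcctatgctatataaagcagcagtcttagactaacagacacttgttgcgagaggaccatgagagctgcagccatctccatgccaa
Sik1, chr20:9958597-9958896, minus strand: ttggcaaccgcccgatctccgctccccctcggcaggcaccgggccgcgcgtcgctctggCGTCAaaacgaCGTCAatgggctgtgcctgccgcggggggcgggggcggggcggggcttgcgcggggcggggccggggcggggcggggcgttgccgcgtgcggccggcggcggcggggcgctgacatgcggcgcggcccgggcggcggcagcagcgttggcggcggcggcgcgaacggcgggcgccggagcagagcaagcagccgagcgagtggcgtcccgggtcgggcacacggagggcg
Hspa5, chr3:38452766-38453065, plus strand: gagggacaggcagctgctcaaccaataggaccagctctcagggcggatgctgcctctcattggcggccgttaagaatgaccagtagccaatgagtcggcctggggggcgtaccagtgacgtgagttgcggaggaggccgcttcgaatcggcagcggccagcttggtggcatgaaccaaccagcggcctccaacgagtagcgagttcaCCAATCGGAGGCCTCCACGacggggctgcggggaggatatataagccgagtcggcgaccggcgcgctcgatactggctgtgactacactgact

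On either strand, TGACG was found in 15 of 22 promoters of immediate early members, 5 of 13 of glucocorticoid responsive members and 11 of 18 of endoplasmic reticulum stress members, against 33.4% of the promoters of genes tested and 22.0% of all 27457. The full element TGACGTCA was found in 3 of 22, 0 of 13 and 0 of 18 of these promoters, against 3.41% of the promoters of genes tested. The stress response element was found in 6 of 18 promoters of endoplasmic reticulum stress members (Calr, Canx, Dnajc3, Hsp90b1, Hspa5 and Xbp1), against 0.195% and 0.0765%. These motifs are part of 11 that were searched over 6 lists, and the 2 marked in capitals were picked after the matches had been seen. The others include the glucocorticoid response element (AGAACA and TGTTCT with 3 bases between them), found in 0 of 13 promoters of glucocorticoid responsive members and in 0.00728% of all promoters. A match describes letters in this window only.

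Immediate early genes, which cells transcribe within minutes of a stimulus, were lower together on side A. Of 30 members 27 were called lower and 0 higher on the plain scale, with a median of −2.72. Over all genes 54.4% were called lower there, with a median of −1.12. After quantile normalization 15 were called lower and 0 higher, with a median of −1.09. Over all genes 10.1% were called lower on that scale, with a median of −0.10. Sik1, a salt-inducible kinase that cyclic AMP signaling induces, read 4.98, 5.38 and 5.71 on side B and 0.09, 0.45 and 2.21 on side A, a difference of −4.47 ± 0.31, or −3.02 ± 0.46. Btg1, an antiproliferative gene and the brightest member, read 7.54, 7.89 and 8.33 on side B and 4.17, 5.76 and 7.76 on side A, a difference of −2.12 ± 0.41, or −1.34 ± 0.19. The members lower on both scales also included Fos, Jun, Junb, Dusp1, Klf2, Klf6, Cd69, Rgs2, Ppp1r15a, Nfkbia, Mcl1 and Odc1.

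Glucocorticoid responsive genes held 13 lower and 0 higher of 15 on the plain scale, against 54.4% lower over all genes, with a median of −3.05. This was the lowest of the 27 lists, but the lists were chosen with earlier results of these data known, so the rank supports nothing. After quantile normalization 8 were lower and 0 higher, against 10.1% lower over all genes, with a median of −1.25. Those lower on both scales were Cxcr4, Pik3ip1, Per1, Klf9, Txnip, Mt1, Sesn1 and Sgk1. Tsc22d3, the glucocorticoid-induced leucine zipper and the brightest member, read 6.76, 6.91 and 7.10 on side B and 4.25, 5.25 and 6.74 on side A, and its difference of −1.70 ± 0.29 became −0.40 ± 0.12 after quantile normalization, short of the fold threshold.

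Genes of the endoplasmic reticulum stress response held 17 lower and 0 higher of 20 on the plain scale, with a median of −2.06. After quantile normalization 7 were lower and 1 higher, with a median of −0.59. Over all genes 54.4% were called lower on the plain scale and 10.1% after quantile normalization. Herpud1, a component of protein degradation at the endoplasmic reticulum, read 5.79, 6.39 and 6.75 on side B and 0.09, 1.15 and 3.26 on side A, a difference of −5.08 ± 0.36, or −3.72 ± 0.33. Hspa5, the chaperone BiP, was named for its promoter after its values had been seen; it read 6.46, 6.66 and 7.23 on side B and 1.66, 2.22 and 5.12 on side A. Its difference was −3.96 ± 0.39, or −2.40 ± 0.17. Calr, calreticulin and the brightest member, differed by −2.01 ± 0.49 on the plain scale and by −0.71 ± 0.32 after quantile normalization, where it was not called. Sdf2l1, the member called higher, read 0.49 to 1.03 on side B and 0.33 to 1.55 on side A.

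Most markers of T, B and NK cells were called lower on side A on the plain scale, where 54.4% of all genes were, and fewer after quantile normalization, where 10.1% of all genes were. The all-gene medians were −1.12 and −0.10. Of 17 T cell markers 16 were called lower and 0 higher, with a median of −2.04, and 4 remained lower after quantile normalization (Cd3e, Cd4, Cd8a and Lck), with a median of −0.67. Cd8a, a chain of the coreceptor of cytotoxic T cells, read 5.75, 6.52 and 6.84 on side B and 1.80, 2.71 and 5.94 on side A, a difference of −3.37 ± 0.46, or −1.77 ± 0.24. Cd3d, the brightest T cell marker, differed by −1.42 ± 0.36, or −0.19 ± 0.15, and was not called on the second scale.

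Of 10 B cell markers 8 were called lower, and 3 after quantile normalization (Cd37, Cd24 and Cd72), with medians of −1.82 and −0.55. Cd72 and, among the T cell markers, Cd4 had side A medians of 0.06 and 0.02, near background. Such members could pass the filter through side B and then had to be lower, so these counts support nothing about a cell type. The same limit holds for members of other lists near background on side A. Cd37, a tetraspanin of B cells, read 5.20, 5.53 and 5.85 on side B and 0.94, 1.36 and 4.87 on side A, a difference of −3.80 ± 0.43, or −2.09 ± 0.23. The highest side A value was that of saline 4. Of 13 genes of NK cells and cytotoxic granules 11 were called lower, and 3 after quantile normalization (Ctsw, Prf1 and Gzmk), with medians of −1.49 and −0.01, the second above that of all genes. Ctsw, a cathepsin of cytotoxic cells, differed by −3.30 ± 0.38, or −1.64 ± 0.18.

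The antigen presentation lists ran alongside. All 8 MHC class II genes that passed the filter were called lower on the plain scale and 2 after quantile normalization (RT1-Ba and Cd74), with medians of −2.08 and −0.59. Over all genes 54.4% and 10.1% were called lower on these 2 scales. The call of RT1-Ba was lost without saline 6 and DOX 1, where its quantile-normalized difference of −1.22 became −0.76. Of 18 genes of MHC class I presentation 15 were called lower, and 4 after quantile normalization. RT1-CE5, a class I chain, read 2.93, 3.27 and 3.71 on side B and −0.39, 0.03 and 0.21 on side A, near the level of probes not expressed on every side A array, so that the fitted difference of −3.27 ± 0.11, or −2.23 ± 0.09, is a lower limit of its size. B2m, the invariant class I light chain, was not called, with −0.25 ± 0.48 and 0.16 ± 0.15.

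Genes that DOX is known to engage gave few calls after quantile normalization. Of 12 genes for the drug's targets, reductases and efflux pumps 1 was called higher and 5 lower on the plain scale. Over all genes 0.473% were higher and 54.4% lower there. After quantile normalization 2 were higher and 1 lower, and the medians on the 2 scales were −0.76 and −0.02. Akr1a1, an aldehyde reductase, read 5.72, 6.07 and 6.47 on side B and 1.74, 2.64 and 5.49 on side A, a difference of −3.0 ± 0.38, or −1.34 ± 0.18. Over all genes, 14.9% were called in either direction on the second scale. Of 15 p53 target genes 0 were called higher and 6 lower, against 54.4% lower over all genes. After quantile normalization 1 was higher and 1 lower, a share near the 14.9% of all genes. Sesn1, a stress-induced sestrin, differed by −3.05 ± 0.42, or −1.43 ± 0.38, and without saline 6 and DOX 1 by −0.87 after quantile normalization. Ephx1, an epoxide hydrolase, differed by 0.31 ± 0.34, or 1.43 ± 0.43.

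Of 26 genes of the NRF2 and glutathione list 0 were called higher and 14 lower on the plain scale, close to the 54.4% lower over all genes. After quantile normalization 4 were higher (Gclm, Gpx1, Gstm5 and Nqo1) and 1 lower (Mafk), against 4.85% and 10.1% of all genes. The medians were −1.10 and 0.12; without saline 6 and DOX 1 the count higher was 7. Gclm, the modifier subunit of glutathione synthesis, read 2.47, 3.04 and 3.58 on side B and 1.52, 4.02 and 5.39 on side A, a difference of 0.69 ± 0.46 that was not called on the plain scale and of 2.31 ± 0.34 after quantile normalization. Mafk, a small MAF partner of NRF2, differed by −3.79 ± 0.31, or −2.29 ± 0.31. Of 19 genes of the BCL2 family and caspases 0 were higher and 10 lower, and 1 higher and 2 lower after quantile normalization, shares lower that lie near the 54.4% and 10.1% of all genes. Bcl2a1, a survival factor of the BCL2 family, read 2.63 to 3.66 on side B and 1.90 to 4.92 on side A, with 0.19 ± 0.36 and 1.99 ± 0.17, while Mcl1, another survival factor, differed by −2.93 ± 0.32, or −1.26 ± 0.23, and Cflar, the caspase-8 inhibitor FLIP, by −2.63 ± 0.14, or −1.59 ± 0.13.

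Interferon response genes split. Of 20 members 1 was called higher and 11 lower on the plain scale, close to the 54.4% lower over all genes. After quantile normalization 4 were higher (Ifit3, Rtp4, Ifi35 and Irf7) and 4 lower (Mx2, Mx1, Irf1 and Ifih1), with a median of 0.05. The shares over all genes were 4.85% higher and 10.1% lower. Ifit3 read 0.57, 0.95 and 2.03 on side B and 1.38, 1.67 and 4.62 on side A, a difference of 1.09 ± 0.41 that fell to 0.78 without saline 4, and of 2.43 ± 0.29 after quantile normalization. Mx2, an interferon-induced GTPase, read 3.19, 3.35 and 4.44 on side B and −0.20, 0.13 and 2.11 on side A, a difference of −3.15 ± 0.28, or −2.07 ± 0.25. Of 17 NF-kB pathway genes 14 were called lower, and 4 lower and 1 higher after quantile normalization; Nfkbia, the inhibitor IκBα, differed by −3.31 ± 0.38, or −1.65 ± 0.43. Of 9 chemokine receptors 1 was called higher and 4 lower, and 3 higher (Ccr1, Ccr2 and Ccr3) and 1 lower (Cxcr4) after quantile normalization.

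Lists of the basic machinery of the cell were mostly called lower on the plain scale, where 54.4% of all genes were called lower. After quantile normalization 4.85% of all genes were called higher and 10.1% lower. Of 13 reference genes, those commonly used to normalize RT-qPCR, 10 were called lower on the plain scale, with a median of −1.36, and 0 in either direction after quantile normalization, with a median of −0.14. Without saline 6 and DOX 1, 3 reference genes were called lower on the plain scale. Of 35 proteasome genes 28 were lower, and 1 higher and 1 lower after quantile normalization. Of 67 genes of the respiratory chain and ATP synthase 46 were lower (30 without saline 6 and DOX 1), and 6 higher and 4 lower. Ribosomal protein genes held 32 lower of 58, near the share of all genes, and 8 higher and 4 lower after quantile normalization. Without saline 6 and DOX 1 their plain count fell to 15. Of 43 translation factors 33 were lower, and 3 higher and 9 lower after quantile normalization, against 10.1% lower over all genes; Eef2, the elongation factor that moves the ribosome, differed by −3.03 ± 0.54, or −2.11 ± 0.30. Of 16 cell cycle and replication genes 10 were lower and 1 (Ube2c) higher, and 1 lower (Pcna) and 1 higher (Ube2c) after quantile normalization. Pcna, the sliding clamp of DNA polymerase, read 5.53, 6.19 and 7.17 on side B and 1.62, 2.38 and 4.91 on side A.

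The heart muscle list held 0 called genes of 14 on either scale. Its members lay near background in PBMC and could pass the filter through the heart arrays, so this count says nothing about the sides. The endothelium and fibroblast list held 1 lower (Vwf) and 0 higher of 9 on the plain scale, and 0 after quantile normalization. The same limit holds for its members near background. Over all genes 54.9% and 14.9% were called on the 2 scales.

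**Figure D4:**
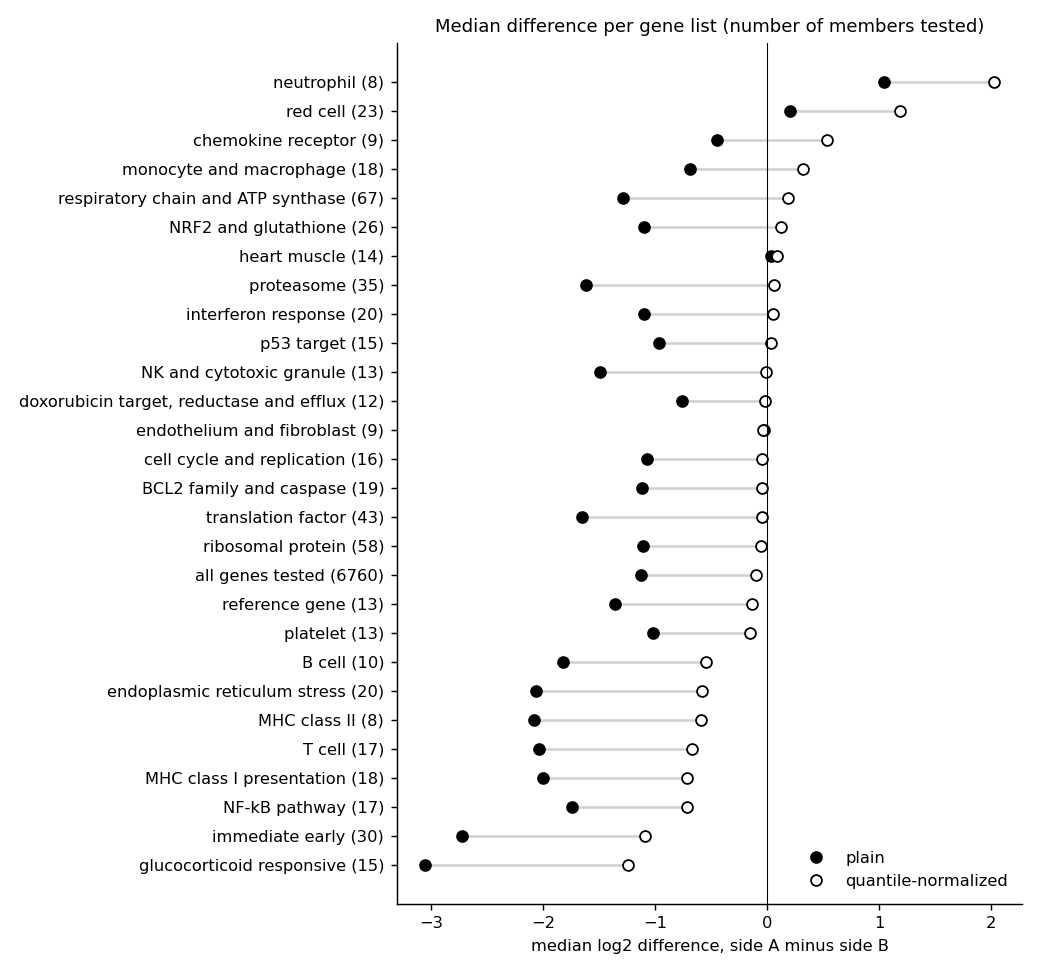
Median log2 difference, side A minus side B, of 27 gene lists and of all 6760 genes tested, with the number of members tested in brackets; filled points are the plain scale and open points the quantile-normalized scale. All genes tested lie at −1.12 and −0.10 and the glucocorticoid responsive list at −3.05 and −1.25.

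Grouped by the labels, the directions turned. Of 6760 genes 3008 (44.5%) were called higher and 52 (0.769%) lower in DOX minus saline on the plain scale, together 45.3%, and 464 (6.86%) higher and 333 (4.93%) lower, together 11.8%, after quantile normalization. S100a8 differed by −4.10 ± 0.64 (SE over 9 DOX and 8 saline arrays, limma adjusted p = 8.3e-05), Cxcr4 by 4.42 ± 0.86 and Per1 by 3.73 ± 0.50. S100a9, with its highest values on a DOX and a saline array, differed by −1.33 ± 0.77 and was not called (adjusted p = 0.13). Ahsp, which was not called between the sides on the plain scale, differed by −2.64 ± 0.80 as labelled (adjusted p = 0.0079), since the low array DOX 1 then stood on the other side. The median of the expressed genes was higher on the DOX arrays by 1.13 (two-sided exact permutation test, p = 0.000946, adjusted p = 0.00126).

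Saline 6 and DOX 1 stood apart from the other 7 arrays of side A and near each other. Across the 6760 genes the correlation between this pair was 0.929, while with the remaining 7 arrays it ran from 0.590 to 0.837, and those 7 correlated at 0.829 to 0.980 among themselves. Side B arrays correlated at 0.959 to 0.989. Their median brightness, 0.35 and 0.32, lay within the range of the other 7, 0.30 to 1.46. On the quantile-normalized scale 2088 genes (30.9%) read lower on both arrays than on all of the other 7 and 961 (14.2%) read higher. Of 23 red cell genes 17 were lower on both and 0 higher, and of 13 platelet genes 8 and 0. Of 8 neutrophil genes 4 were lower on both and 2 higher, and of 30 immediate early genes 8 and 10. Glrx5, a mitochondrial glutaredoxin needed for heme and iron-sulfur clusters, read −0.06 and 0.16 on the 2 arrays and 5.24, 6.14 and 6.90 on the other 7. S100a9 went the other way, with 7.03 and 6.38 against 0.65, 1.40 and 3.81. Both genes were chosen after their values had been seen, and no test was made of this split, which was seen in the data.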

How the data were processed

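Expression was measured on Illumina RatRef-12 BeadChips. The authors deposited log2 intensities, without background subtraction, centred on each array's median. The deposited raw tables were not used, since their 34 columns of values carry numbers that match no label. The number of arrays and their signal over background limit the precision. Probes were named from the platform annotation (13793 of 22523 had a symbol, and 13752 matched the RefSeq gene table), and a gene was read from its brightest probe on average. Genes were expressed above an average of 0.152 (6760 genes). Each array was set to 0 at its median over probes below that level. Sides were compared with limma 3.58.1 in R 4.3.3 (lmFit, eBayes, Benjamini-Hochberg over the 6760 genes), and array measures by exact permutation over 24310 splits. limma was tested on simulated arrays with independent noise, in which a small set of genes was shifted by known amounts. The simulation lacked the difference in brightness and the few distinct values of side A. It checks the fit only and says nothing about the calls given here. Errors are moderated SE. The study names 17 rats, 9 with DOX and 8 controls, and the 17 PBMC arrays match these numbers as labelled. How repeat arrays of a rat entered a column is not given, and p-values measure the spread between arrays only.

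The members and lists were chosen with earlier results of these data known. The genes named are the 10 largest changes in each direction by the quantile-normalized difference, among genes called the same way without overlap on both scales (6 increases qualified); the 5 largest increases called only after quantile normalization; the brightest member and the largest called change of each list; and S100a8 and S100a9. Other members are named only in counts of a list or where stated. A list name was matched through an older symbol only where it was not itself a current RefSeq symbol, a correction made after values had been seen. Alternatives were other normalizations and filters, array weights, p-values set against genes not expressed, a replicate block and leaving out arrays. The estimates in the study's supplementary list were used only to find its grouping and the expression threshold.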

Additional observations from a re-analysis of the deposited data

Results flagged for a closer look

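Within each side, a value was looked at again where its gap to the nearest array, divided by the range of the side, passed Dixon's 95% limit. Of 148 groups of arrays tested (70 genes and 4 array measures on each side) 12 passed, and chance passes about 1 in 20. On side A all 11 were values of saline 4. It lay above the other 8 arrays in the median level of the expressed genes, at 1.46 against 0.30 to 0.77, and in the interquartile range, at 0.96 against 0.26 to 0.49. Among genes lower on side A it read 4.87 for Cd37 (the others 0.94 to 2.36), 1.80 for Fem1b (−0.01 to 0.62), 2.62 for Klf9 (0.39 to 1.48), 2.11 for Mx2 (−0.20 to 0.84), 3.99 for Ndufa10l1 (0.74 to 2.24) and 4.61 for Psmc1 (1.06 to 2.68). Among genes higher on side A it read 3.20 for Retnla (0.55 to 1.82) and 4.84 for Upp1 (1.33 to 2.72). For RT1-CE5 saline 4 was the lowest array, at −0.39 against −0.04 to 0.21. On side B the passing value was Psma5, a proteasome subunit, at 4.51 on DOX 8 against 3.54 to 3.99.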

How the results depend on the processing

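The count of 3711 genes called between the sides (32 higher, 3679 lower) became 1008 after quantile normalization and 1159 (480 higher, 679 lower) when saline 6 and DOX 1 were left out as well. As labelled, 3060 genes became 797 and 1159. Without DOX 1 the labels and the sides split the arrays alike, with the sign reversed. Any count without DOX 1, such as 1159, is therefore the same fit for both groupings. The step that sets p-values against those not expressed can be built in more than 1 way, and the methods do not settle which. The version run first, with separate fits and the genes not expressed as reference, called 0 genes between the sides and 0 as labelled (2788 and 1688 at an unadjusted p under 0.05). A further 3 versions were added after that count had been seen. A joint fit called 1536 and 0 genes. All probes not expressed as reference called 0 and 0 with separate fits (3220 and 2133 at an unadjusted p under 0.05), and 1975 and 357 with a joint fit. Which of the 4 is nearest to the study's own was not tested.

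Leaving out each array in turn gave 3602 to 3902 genes between the sides, 2843 to 3614 as labelled and 942 to 1106 after quantile normalization, and median differences of −1.45 to −1.30 and 1.08 to 1.31. The genes called higher numbered 21 without saline 4, 48 without saline 6, 51 without DOX 1 and 66 without the last 2. Retnla, Ube2c and Ifit3 lost their plain calls without saline 4, and Ifit3 also without saline 6. Akr1b1 turned from −1.32 to 0.30 after quantile normalization, 0.37 percentile points and 0.46 without saline 6 and DOX 1, and Fcer1g from −1.01 to 0.17, 0.10 points and 0.15. Irak1 turned from −0.82 to 1.03, 5.77 points and 1.01, and Psma5 from −0.69 to 1.05 and 1.49 after quantile normalization; the cause was not tested. The quantile-normalized calls of Irak1 and Psma5 were each lost without any of 5 single arrays.

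The labels give saline and DOX arrays the same replicate numbers. With the number as a block (replicate block) 3448 genes were called between the sides and 3029 as labelled. Over 8 pairs the deviations correlated at −0.417 to 0.780, with 5 above 0.1, and 3 saline arrays were closest to their own number; since not every pair lay above 0.1, the numbers were not taken as a pairing. Array weights (3915), deposited values as centred (3481), no filter (3699) and the filter on PBMC averages (3717) kept the count within 1.5 times. For a gene near background on both sides these arrays cannot show a difference.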
